A study of Mus musculus with 2 samples.

Results

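The genes described here encode the subunits of the nuclear RNA polymerases I, II and III and the single-chain RNA polymerase of mitochondria. They were taken by gene name (symbols that begin with Polr1, Polr2 or Polr3, and Polrmt, Znrd1, Cd3eap and Twistnb), which gave 32 of the 23288 genes measured. RNA came from splenic B cells of fetal liver chimeras, that is, mice with a blood system grown from a fetal liver graft. The cells, of a mixed B6 and 129 background crossed back to B6, were cultured for 72 hours with bacterial lipopolysaccharide and interleukin 4, which drives switching to IgG1. The groups are labelled Nedd4-/- and Nedd4+/+ for the gene of the ubiquitin ligase Nedd4, with 1 library each after removal of ribosomal RNA. Without a second library per genotype there is no replicate check and no test of genotype, and a difference below is one between these libraries.

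Polymerase I makes the large ribosomal RNA precursor, polymerase II makes messenger RNA, and polymerase III makes transfer RNA, 5S ribosomal RNA and other small RNAs. Each is a complex of many subunits built around a pair of very large chains that form the active site. Some smaller subunits belong to all of the nuclear enzymes, some only to I and III, and the rest to a single enzyme. Activated B cells grow and divide quickly, a state that calls for much ribosomal and transfer RNA. In class switching, transcription by polymerase II opens the DNA on which the deaminase AID acts.

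The Nedd4-/- library held 6.17 gigabases of reads and the Nedd4+/+ library 8.40 gigabases, and genes of known length took up 24.5% of the bases in the Nedd4-/- library and 32.9% in the Nedd4+/+ library. Nedd4 stood at 1.95 RPKM (reads relative to transcript length in kilobases and to all mapped reads) in Nedd4-/- cells and 7.59 RPKM in Nedd4+/+ cells, so that Nedd4 RNA was lower but still present in the library labelled Nedd4-/-. Which part of the gene is deleted is not given in the sources used here. All 10 B cell markers examined reached a mean of 1 RPKM. So did 3 of 10 T cell markers, Thy1, Cd2 and Lck. In Nedd4-/- cells they had 9.07, 2.22 and 1.08 RPKM, and in Nedd4+/+ cells 11.8, 5.96 and 1.41 RPKM. Cd3e did not, at 0.371 RPKM in Nedd4-/- and 0.107 RPKM in Nedd4+/+ cells. The same mean was reached by 1 of 6 natural killer cell, 0 of 9 myeloid, 2 of 6 erythroid and 1 of 6 stromal and endothelial markers. Summed levels were 14.3 RPKM in Nedd4-/- and 20.0 RPKM in Nedd4+/+ cells for T cell markers, and under 6 RPKM in either library for each of the last 4 lists. No marker was listed at 0. The libraries also differed in sex-linked RNA, with Xist at 0.0958 RPKM in Nedd4-/- and 23.7 RPKM in Nedd4+/+ cells and the Y-linked Ddx3y at 10.6 RPKM in Nedd4-/- and 2.63 RPKM in Nedd4+/+ cells. The effects of sex, culture and genotype cannot be told apart. In such bulk RNA, fewer cells of a type and less RNA per cell cannot be told apart either.

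None of the polymerase subunit genes differed 2-fold between the libraries. All 32 passed the minimum mean of 1 RPKM, and the 31 given by name below were lower in the Nedd4-/- library in RPKM as deposited, where 92.7% of all 9405 genes tested were lower. The median log2 ratio of all genes, Nedd4-/- over Nedd4+/+ on the RPKM + 1 scale, was -0.31. From here on a relative ratio is a gene's log2 ratio minus that median. Relative ratios of these 31 ran from -0.26 for Polr1a to 0.27 for Polr2j, within the central 90% of all genes (-0.43 to 0.37). Relative to the median, 0.276% of all genes reached 2-fold higher and 0.223% reached 2-fold lower. As deposited, 1.15% of all genes were 2-fold lower in Nedd4-/- cells or beyond, and again 0 of the subunits. Relative ratios were positive for 21 subunits and negative for 11, where 50.0% of all genes are positive by construction, and the median relative ratio of the subunits was 0.06.

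The order of the enzymes by subunit level was the same in both libraries. RPKM is a level per transcript length, which allows a rough comparison of genes. Median transcript length was 1015 nt for subunits of polymerase II alone, 3492 nt for those of I and 3001 nt for those of III. The part of length in the order of the enzymes was not tested. Subunits found in polymerase II alone had a median of 11.6 RPKM in Nedd4-/- cells and 13.7 RPKM in Nedd4+/+ cells. Those of polymerase I alone had a median of 7.82 RPKM in Nedd4-/- and 9.71 RPKM in Nedd4+/+ cells, and those of polymerase III alone 3.80 RPKM in Nedd4-/- and 5.02 RPKM in Nedd4+/+ cells. The polymerase II median was thus 3.04 times that of polymerase III in the Nedd4-/- library and 2.73 times in the Nedd4+/+ library. On the log2(RPKM + 1) scale the median level of polymerase II exceeded that of polymerase III by 1.39 in Nedd4-/- and 1.29 in Nedd4+/+ cells, and that of polymerase I by 0.51 in Nedd4-/- and 0.46 in Nedd4+/+ cells. Polymerase I exceeded polymerase III by 0.88 in Nedd4-/- and 0.83 in Nedd4+/+ cells. The classes overlapped: polymerase I subunits spanned 2.70 to 9.28 RPKM in Nedd4-/- cells and polymerase III subunits 1.06 to 5.48 RPKM among those named.

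**Figure D1:**
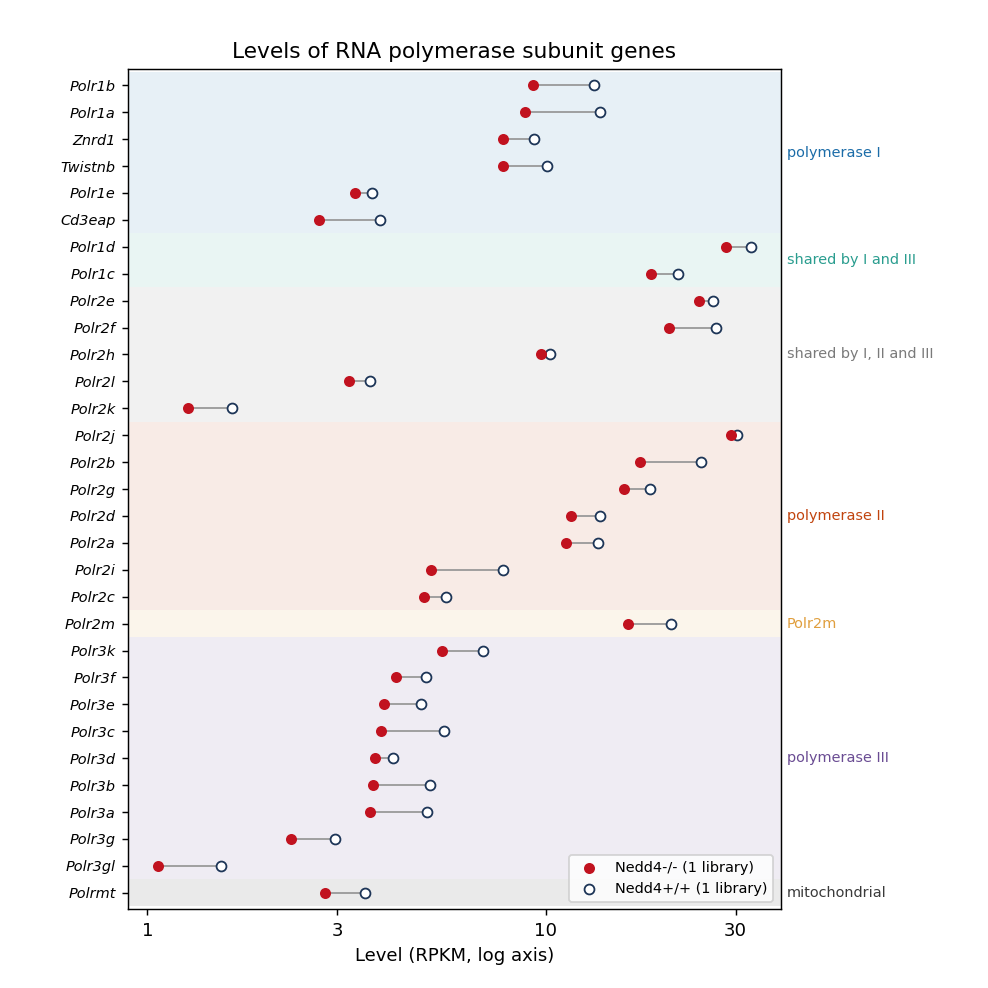
Level of 31 subunit genes in RPKM on a log axis, grouped by the enzyme that holds the subunit; filled points are the Nedd4-/- library, open points the Nedd4+/+ library, and lines join the 2. The polymerase III subunits shown sit at 1.06 to 5.48 RPKM in Nedd4-/- cells, while the shared subunits reach from 1.26 to 28.3 RPKM.

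The log2 levels of the 32 genes correlated between the libraries with a Pearson r of 0.991, a description across genes that are not replicates. Ranked by level, 9 genes kept their place and none moved by more than 3 places. Polr2j and Polr1d took the first 2 places in both libraries, and Polr2k and Polr3gl the last 2. A gene's standing among all genes tested ranged widely: in the Nedd4-/- library Polr2j exceeded 94.0% of them and Polr3gl 3.71%.

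Polymerase I held the subunit with the lowest relative ratio. Polr1a, the largest chain and part of the active site, had 8.86 RPKM in Nedd4-/- cells, against 13.7 RPKM in Nedd4+/+ cells, a relative ratio of -0.26. Its ratio without pseudocount had a counting interval of -0.31 to -0.17 relative to all genes, from 2493 read pairs (Nedd4-/-) and 5237 read pairs (Nedd4+/+). All intervals given with relative ratios are of this kind. Polr1b, its partner as the second largest chain, had 9.28 RPKM in Nedd4-/- cells and 13.2 RPKM in Nedd4+/+ cells (relative ratio -0.16, interval -0.23 to -0.02). These partners stood at nearly equal levels, with Polr1a at 0.955 times Polr1b in Nedd4-/- cells and 1.03 times in Nedd4+/+ cells.

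The smaller subunits of polymerase I were closer to the median of all genes or above it. Twistnb, a subunit of the stalk that meets the initiation factor Rrn3, had 7.81 RPKM in Nedd4-/- and 10.1 RPKM in Nedd4+/+ cells (relative ratio -0.02). Znrd1, a zinc ribbon subunit that takes part in RNA cleavage, had 7.83 RPKM in Nedd4-/- and 9.33 RPKM in Nedd4+/+ cells (0.09). Polr1e and Cd3eap encode partners in a dimer that resembles the general factor TFIIF, and they lay on opposite sides of the median. Polr1e had 3.33 RPKM in Nedd4-/- and 3.67 RPKM in Nedd4+/+ cells (0.20, interval 0.03 to 0.46). Cd3eap had 2.70 RPKM in Nedd4-/- and 3.84 RPKM in Nedd4+/+ cells (-0.07, interval -0.39 to 0.14). It overlaps Ercc1 on the other strand, at 4.07 RPKM in Nedd4-/- and 6.06 RPKM in Nedd4+/+ cells, and with no strand setting stated, reads of the pair cannot be told apart. In all, 2 of the 6 polymerase I subunits had a positive relative ratio, and their median relative ratio was -0.05.

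**Figure D2:**
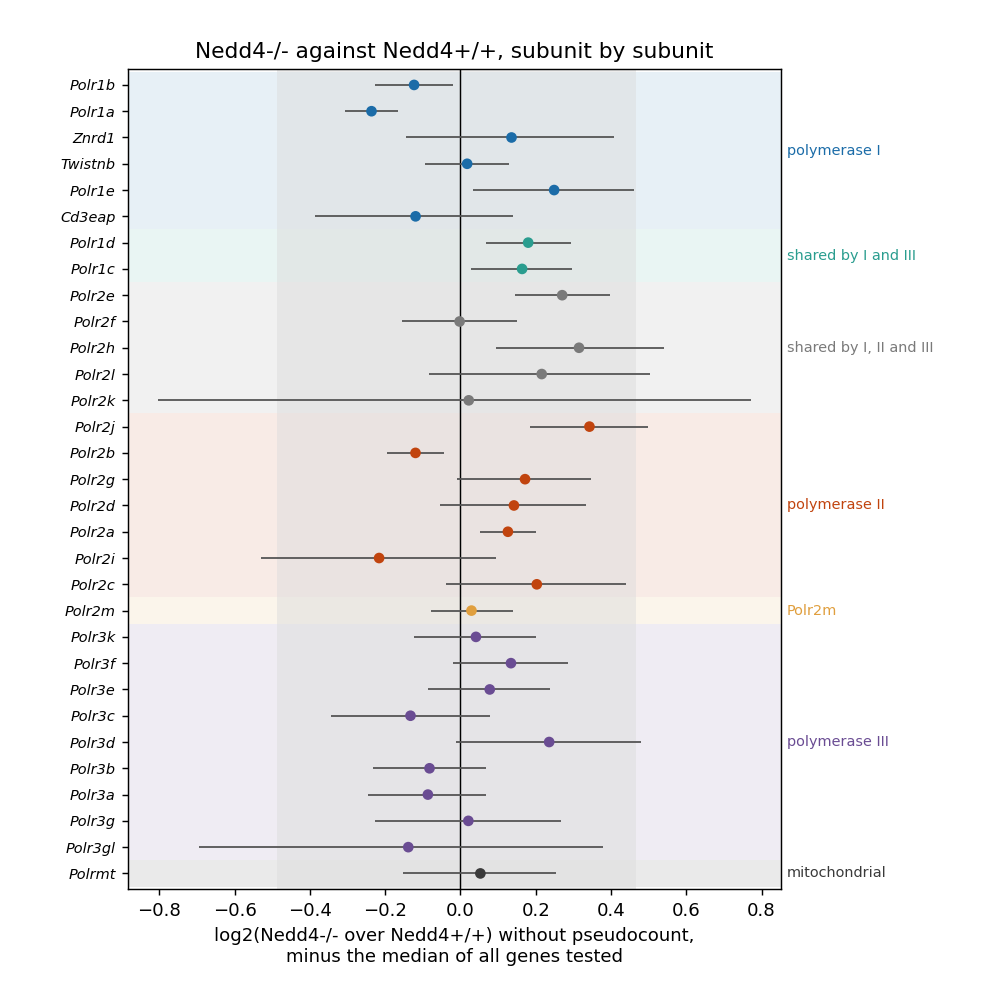
Log2 ratio of Nedd4-/- over Nedd4+/+ without pseudocount, minus the median of all genes tested, for 31 subunit genes; lines are 95% Clopper-Pearson counting intervals and the grey band holds the central 90% of all genes. Polr1a, Polr1b and Polr2b have intervals wholly below 0, and Polr2j lies farthest to the right.

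The subunits shared between enzymes mostly lay above the median of all genes. All 7 have short transcripts, of 601 to 1650 nt. Members under 1500 nt lay above the median in 10 of 12 cases, and 56.1% of all genes of that length did. The part of length in the ratios of shared subunits was not tested. Polr1c and Polr1d, which pair in polymerases I and III much as the alpha subunits do in the bacterial enzyme, were among the most abundant members. Polr1d had 28.3 RPKM in Nedd4-/- and 32.8 RPKM in Nedd4+/+ cells (relative ratio 0.11), and Polr1c 18.4 RPKM in Nedd4-/- and 21.5 RPKM in Nedd4+/+ cells (0.10). Both counting intervals lay above the median of all genes, at 0.07 to 0.29 for Polr1d and 0.03 to 0.30 for Polr1c.

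Of the 5 subunits common to polymerases I, II and III, 4 lay above the median, and the median relative ratio of the 5 was 0.18. Polr2e, a subunit on the side where DNA enters, had 24.3 RPKM in Nedd4-/- and 26.4 RPKM in Nedd4+/+ cells (0.20, interval 0.14 to 0.40). Polr2h had 9.74 RPKM in Nedd4-/- and 10.3 RPKM in Nedd4+/+ cells (0.25, interval 0.09 to 0.54). Polr2f, at 20.4 RPKM in Nedd4-/- and 26.7 RPKM in Nedd4+/+ cells, was the exception at -0.06. Polr2l and Polr2k encode very small zinc-binding subunits, and their levels were far lower than those of the other shared subunits. Polr2l had 3.21 RPKM in Nedd4-/- and 3.61 RPKM in Nedd4+/+ cells (0.18), and Polr2k 1.26 RPKM in Nedd4-/- and 1.63 RPKM in Nedd4+/+ cells (0.10). Polr2e therefore stood at 19.2 times the level of Polr2k in the Nedd4-/- library and 16.2 times in the Nedd4+/+ library. Polr2k rested on 23 read pairs (Nedd4-/-) and 41 read pairs (Nedd4+/+) over 601 nt, and has a processed pseudogene copy whose part in its counts was not tested. Its counting interval ran from -0.80 to 0.77, so that a shift of the size seen in Polr1a was not detectable at this depth.

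In polymerase II the 2 largest chains lay on opposite sides of the median. Polr2a, the largest chain, carries the repeated tail that is phosphorylated during transcription. It had 11.3 RPKM in Nedd4-/- and 13.5 RPKM in Nedd4+/+ cells (relative ratio 0.07, interval 0.05 to 0.20). Its read pairs, and so its interval, rest on the length of the longest coding transcript of its symbol, since its RefSeq ID had no length in the annotation. Polr2b, its partner in the active site, had 17.3 RPKM in Nedd4-/- and 24.6 RPKM in Nedd4+/+ cells (-0.17, interval -0.19 to -0.04). The level of Polr2b was 1.53 times that of Polr2a in Nedd4-/- cells and 1.82 times in Nedd4+/+ cells.

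Most smaller polymerase II subunits lay above the median of all genes. Polr2j and Polr2c form the alpha-like pair of this enzyme. Polr2j had 29.3 RPKM in Nedd4-/- and 30.2 RPKM in Nedd4+/+ cells (0.27, interval 0.19 to 0.50), and Polr2c 4.94 RPKM in Nedd4-/- and 5.62 RPKM in Nedd4+/+ cells (0.16). The members of this pair differed in level by 5.93 times in Nedd4-/- and 5.38 times in Nedd4+/+ cells. Polr2g and Polr2d, which form the stalk, were close to each other: Polr2g had 15.7 RPKM in Nedd4-/- and 18.3 RPKM in Nedd4+/+ cells (0.11), and Polr2d 11.6 RPKM in Nedd4-/- and 13.7 RPKM in Nedd4+/+ cells (0.08). Polr2i, the zinc ribbon subunit, had 5.15 RPKM in Nedd4-/- and 7.83 RPKM in Nedd4+/+ cells (-0.21). Its interval of -0.53 to 0.09 included the median of all genes. Altogether 5 of these 7 subunits lay above the median, with a median relative ratio of 0.08. Polr2m, which binds polymerase II but is not one of its core subunits, had 16.1 RPKM in Nedd4-/- and 20.7 RPKM in Nedd4+/+ cells (-0.03).

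The 9 subunits of polymerase III alone that are given by name had relative ratios from -0.12 for Polr3c to 0.19 for Polr3d, and each was lower in Nedd4-/- cells in RPKM as deposited. Crcp, a polymerase III subunit whose name the rule does not reach, had 6.23 RPKM in Nedd4-/- and 8.04 RPKM in Nedd4+/+ cells (-0.01).

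The chains of the polymerase III active site had the same relative ratio. Polr3a, the largest, had 3.62 RPKM in Nedd4-/- and 5.03 RPKM in Nedd4+/+ cells (-0.07), and Polr3b 3.69 RPKM in Nedd4-/- and 5.12 RPKM in Nedd4+/+ cells (-0.07). Polr3b was 1.02 times Polr3a in either library. Polr3d and Polr3e, the TFIIF-like pair, had 3.73 and 3.92 RPKM in Nedd4-/- and 4.15 and 4.87 RPKM in Nedd4+/+ cells, with relative ratios of 0.19 and 0.06. Polr3k, the zinc ribbon subunit, had 5.48 RPKM in Nedd4-/- and 6.98 RPKM in Nedd4+/+ cells (0.01).

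Polr3c, Polr3f and either Polr3g or Polr3gl form a trimer needed for initiation. Polr3c had 3.86 RPKM in Nedd4-/- and 5.54 RPKM in Nedd4+/+ cells (-0.12), and Polr3f 4.20 RPKM in Nedd4-/- and 5.01 RPKM in Nedd4+/+ cells (0.10). Polr3g and Polr3gl are alternative forms of 1 subunit, and the first is known from embryonic stem cells and tumours. Polr3g had 2.29 RPKM in Nedd4-/- and 2.96 RPKM in Nedd4+/+ cells (0.05), and Polr3gl 1.06 RPKM in Nedd4-/- and 1.53 RPKM in Nedd4+/+ cells (0.02). The level of Polr3g was 2.16 times that of Polr3gl in Nedd4-/- and 1.93 times in Nedd4+/+ cells, so that the order of the 2 forms was the same. Polr3gl rested on 46 read pairs (Nedd4-/-) and 91 read pairs (Nedd4+/+). Of the 10 subunits 7 had positive relative ratios, with a median relative ratio of 0.03. Polr3gl is among the 7, but without pseudocount its ratio relative to all genes was -0.14 (interval -0.69 to 0.38). Polrmt, the mitochondrial enzyme, had 2.78 RPKM in Nedd4-/- and 3.51 RPKM in Nedd4+/+ cells (0.06).

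Set side by side by position in the complex, the largest chain of II stood above that of I in Nedd4-/- cells and about level with it in Nedd4+/+ cells. Polr2a was 1.27 times Polr1a in Nedd4-/- cells and 0.990 times in Nedd4+/+ cells. It was 3.12 times Polr3a in Nedd4-/- and 2.69 times in Nedd4+/+ cells. For the second largest chains the ratios were nearly the same in both libraries: Polr2b was 1.86 times Polr1b in each, and 4.68 times Polr3b in Nedd4-/- and 4.80 times in Nedd4+/+ cells. None of these ratios between genes has a replicate.

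Counting intervals lay wholly above the median of all genes for 7 of the 31 named subunits, where 18.8% of all genes did, and wholly below it for 3, where 23.2% of all genes did. The 7 were Polr1e, Polr1c, Polr1d, Polr2e, Polr2h, Polr2a and Polr2j, of which 4 are shared between enzymes. The 3 below were Polr1a, Polr1b and Polr2b, each a chain of an active site. Whether an interval excludes the median also depends on the number of read pairs. Polr2i had a lower relative ratio (-0.21) than Polr1b or Polr2b, but its interval included the median. It had 129 read pairs in the Nedd4-/- library, against 1132 for Polr1b and 2186 for Polr2b. These intervals compare the reads of the libraries, not the genotypes. A coding gene on the other strand overlaps 10 of the 32 members, among them Polr1e, Polr2b, Polr2h, Polr2i and Polr2j. Of the 22 members that no coding gene overlaps on the other strand, 15 lay above the median, with a highest relative ratio of 0.20.

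Relative ratios were mostly negative for the large chains and mostly positive for the other members, a difference that was not tested. Of the 6 chains that form the active sites, 5 lay below 0, with a median relative ratio of -0.11, and Polr2a above 0. Of the other 26 members, 20 lay above 0, with a median of 0.09. The large chains also have long transcripts. Members under 1500 nt lay above the median in 10 of 12 cases, those of 1500 to 3000 nt in 6 of 9, and those of 3000 nt or more in 5 of 11. Among all genes tested in the same length classes, 56.1%, 50.3% and 46.7% lay above it, so that the longest members were split much as all genes of that length. Across the 32 members the relative ratio and log2 length had a Pearson correlation of -0.40 and a Spearman correlation of -0.40, and across 9291 genes -0.12 and -0.09. These are descriptions of 2 libraries in which all genes share the same reads and depth, and the part of transcript length in the difference between subunits was not tested.

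**Figure D3:**
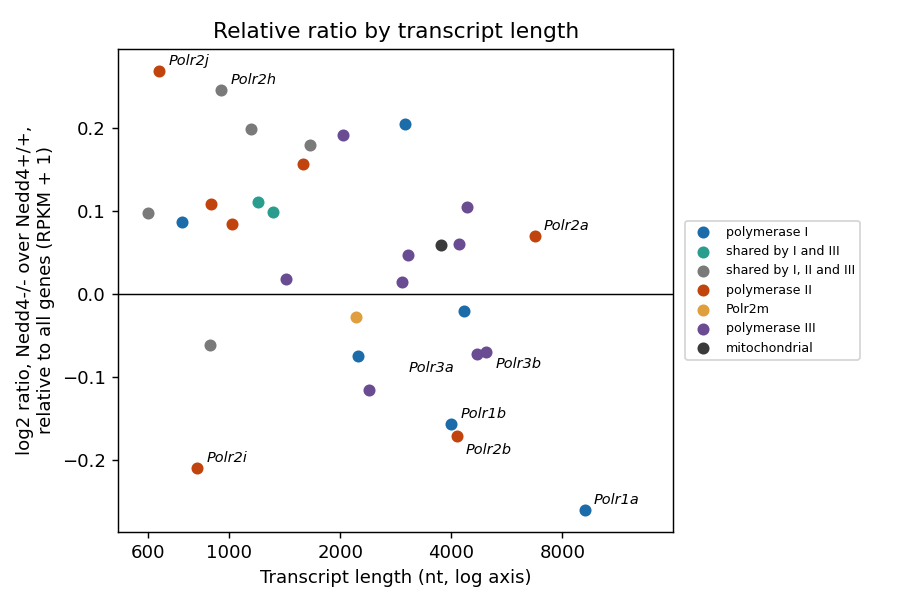
Relative log2 ratio (Nedd4-/- over Nedd4+/+, RPKM + 1, minus the median of all genes) of 31 subunit genes against transcript length in nt on a log axis, coloured by enzyme. Polr1a, the longest at 9216 nt, is the lowest at -0.26, and 10 of the 12 transcripts under 1500 nt lie above 0.

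Factors that act with each polymerase were then set beside the subunits. None of those tested was 2-fold different relative to all genes. Only 0.276% of all genes were 2-fold higher and 0.223% 2-fold lower, so that a count of 0 does not set these factors apart. Across 9291 genes the relative ratio and the mean level had a Spearman correlation of -0.37, and across the 32 subunit members 0.06. The lists differ in level, with Nedd4+/+ medians of 17.4 RPKM for 14 polymerase I factors and 3.33 RPKM for 12 mitochondrial ones. The part of level in the ratios of these lists was not tested. Of 13 tested factors of polymerase I and of rRNA processing 3 lay above the median of all genes, with a median relative ratio of -0.08. Ubtf, which binds along the ribosomal DNA, had 12.1 RPKM in Nedd4-/- and 20.0 RPKM in Nedd4+/+ cells (-0.37, interval -0.44 to -0.24). The nucleolar proteins Nolc1 and Tcof1 had relative ratios of -0.34 and -0.32, and the RNA helicase gene Ddx21 -0.21. Rrn3, the factor that joins polymerase I to its promoter, was at -0.02, with 14.6 RPKM in Nedd4-/- and 18.7 RPKM in Nedd4+/+ cells.

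Of the general factors of polymerase II, 20 of 33 had positive relative ratios, with a median relative ratio of 0.03. The phosphatase gene Ctdp1, whose product acts on the tail of Polr2a, was at -0.30, and the TFIID subunit genes Taf1, Taf6 and Taf13 at -0.29, -0.26 and 0.29. The interval of Taf13, at 1.17 RPKM in Nedd4-/- and 1.20 RPKM in Nedd4+/+ cells, ran from -0.07 to 0.76 and included the median of all genes. Of 18 polymerase III factors, a list that also holds the subunit gene Crcp, 9 lay above the median, with a median of 0.02. Maf1, the repressor of polymerase III, had 8.30 RPKM in Nedd4-/- and 12.6 RPKM in Nedd4+/+ cells (-0.23, interval -0.38 to -0.04). Gtf3c3 and Gtf3c6, subunits of TFIIIC, stood at -0.23 and 0.25, and Snapc5, of the small nuclear RNA activating complex, at 0.29 (interval -0.01 to 0.70).

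Factors of mitochondrial transcription and DNA replication gave 7 of 11 above the median, with a median of 0.11. Mterf and Mterfd3, of the termination factor family, were at 0.32 and 0.28, the initiation factor gene Tfb2m at 0.24 and Polg2, a subunit of the mitochondrial DNA polymerase, at 0.21. These 4 genes stood between 1.85 and 2.93 RPKM in the libraries, and the intervals of Tfb2m (-0.06 to 0.58) and Polg2 (-0.11 to 0.63) included the median of all genes. Of 18 assembly factors, which build the polymerases in the cytoplasm, 8 lay above the median, with a median of -0.02. Ruvbl2, an ATPase of the chaperone complex, had 24.8 RPKM in Nedd4-/- and 37.7 RPKM in Nedd4+/+ cells (-0.27). Its partner Rpap3 and the GTPase gene Gpn3 were at -0.21 and -0.23, and Pdrg1, a prefoldin-like gene, at 0.36. The lists held 3 further genes, Taf1a, Pfdn6 and the myeloid marker Ly6g, that were not analysed here.

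**Figure D4:**
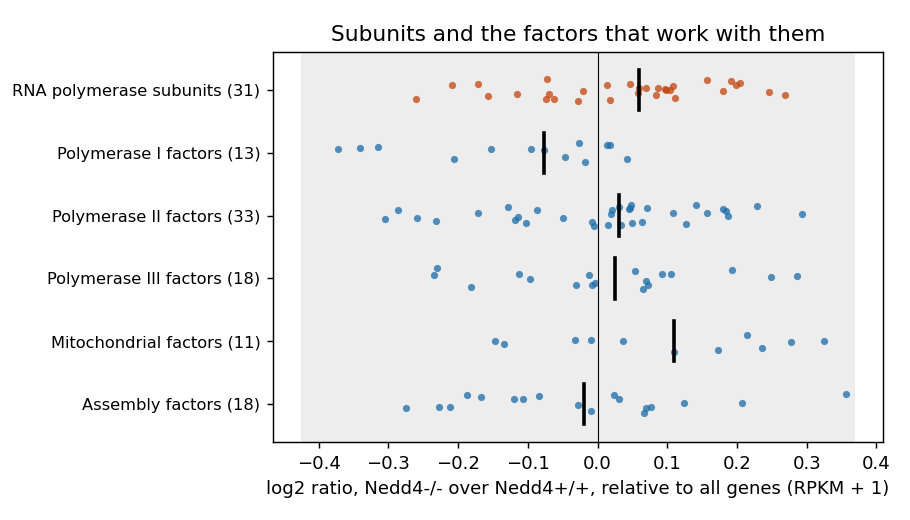
Relative log2 ratio (Nedd4-/- over Nedd4+/+, RPKM + 1) of 31 polymerase subunits and of each tested factor in 5 lists, with the number of genes in brackets; thick bars are medians and the grey band holds the central 90% of all genes. The medians run from -0.08 for polymerase I factors to 0.11 for mitochondrial factors, and all points lie inside the band. The lists differ in level, and the part of level in these medians was not tested.

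The kb upstream of each subunit gene, read in the same libraries, split by level. Upstream levels are in RPKM and their log2 ratios have 0.1 RPKM added. All 7 windows that averaged at least 1 RPKM were lower in Nedd4-/- cells, as were 78.5% of 2109 such windows of all genes. Of the 18 windows between 0.2 and 1 RPKM, 15 were higher in Nedd4-/- cells, as were 82.0% of 9728 windows of all genes, and the 7 weaker ones were all higher, as were 82.0% of 11254 windows of all genes that lay under 0.2 RPKM and above 0. Of the 25 member windows of at least 0.2 RPKM, 15 were higher, where 71.2% of all such windows were. All windows had a median of 0.267 RPKM (Nedd4-/-) and 0.134 RPKM (Nedd4+/+), and the median log2 ratio of the 11837 windows tested was 0.41. The first quartile of all gene levels also differed, at 0.234 RPKM (Nedd4-/-) and 0.110 RPKM (Nedd4+/+). With each library's first quartile subtracted from the gene levels, 29 of the 32 members kept their side of the median of all genes. The part of this difference in the window values was not tested. Relative to the median of all windows, 1 of the 25 member windows tested was at least 2-fold higher, that of Polr2f, where 6.50% of all windows were. In the other direction 3 were at least 2-fold lower, those of Polr2a, Polr3c and Znrd1, where 5.68% of all windows were. That share covers windows of every level from 0.2 RPKM, and strong windows were mostly lower. Before the median of 0.41 was subtracted, the log2 ratios were -0.71 for Polr2a, -0.64 for Polr3c and -0.84 for Znrd1, short of 2-fold. That of Polr2f was 1.43. The median of the 25 member windows tested, relative to the median of all windows, was -0.34.

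The strongest upstream signal belonged to Polr2i. Its window had 3.95 RPKM in Nedd4-/- and 5.34 RPKM in Nedd4+/+ cells, or 0.767 and 0.682 of the level of Polr2i itself. Tbcb, a tubulin folding factor gene at 9.39 RPKM in Nedd4-/- and 11.9 RPKM in Nedd4+/+ cells, overlaps the start of Polr2i and runs the other way through this window. The window of Polr2a had 2.04 RPKM in Nedd4-/- and 3.41 RPKM in Nedd4+/+ cells, with no other gene annotated there. That of Polr3c had 1.47 RPKM in Nedd4-/- and 2.34 RPKM in Nedd4+/+ cells. It holds the start of Rnf115, a ubiquitin ligase gene, which lies 36 nt from that of Polr3c and had 9.75 RPKM in Nedd4-/- and 12.6 RPKM in Nedd4+/+ cells. The window of Polr1c, with the start of Yipf3 at 26 nt, had 1.98 RPKM in Nedd4-/- and 2.25 RPKM in Nedd4+/+ cells.

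A gene on the other strand reached into the upstream kb of 17 of the 32 members, and 5 of these 17 windows averaged at least 1 RPKM, against 2 of the other 15. A strong neighbour did not in every case come with a strong window. Polr3a lies 67 nt from the start of Rps24, a ribosomal protein gene at 52.7 RPKM in Nedd4-/- and 63.2 RPKM in Nedd4+/+ cells, yet its window had 0.313 RPKM in Nedd4-/- and 0.241 RPKM in Nedd4+/+ cells. An abundant subunit did not in every case have a strong window either. The window of Polr2j, the most abundant member in Nedd4-/- cells, had 0.472 RPKM in Nedd4-/- and 0.311 RPKM in Nedd4+/+ cells. These values lay above the medians of all windows, 0.267 RPKM in Nedd4-/- and 0.134 RPKM in Nedd4+/+ cells.

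**Figure D5:**
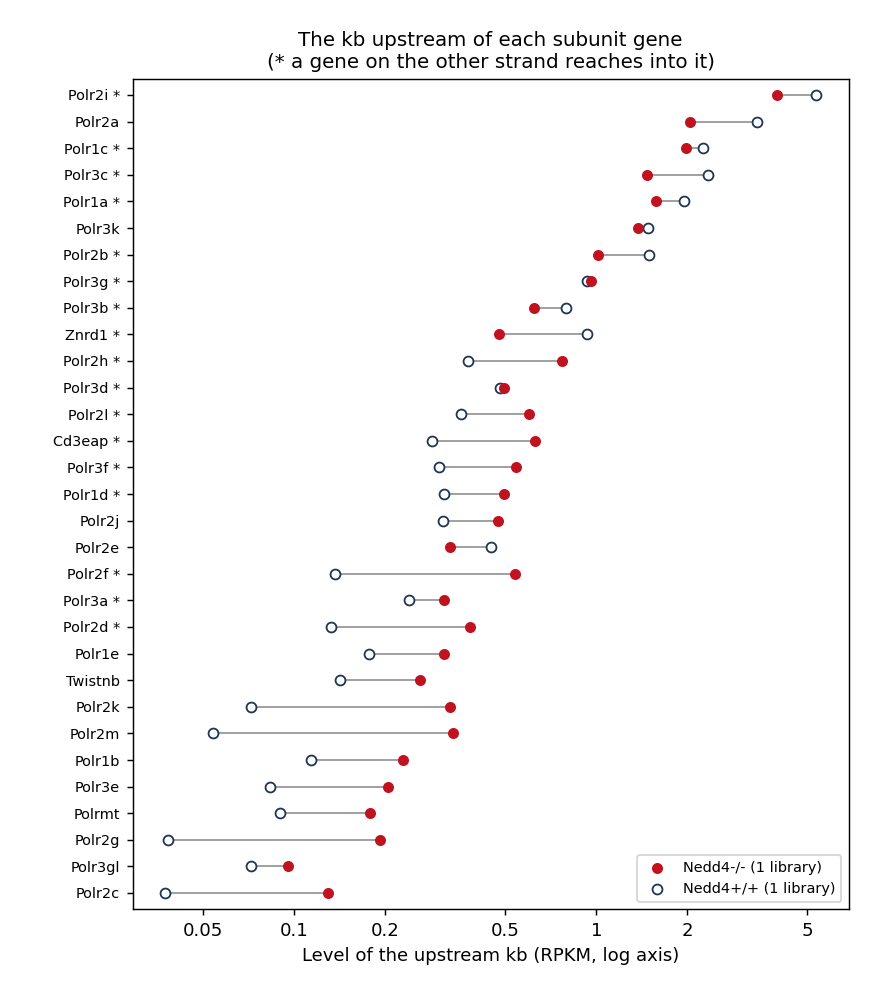
Level of the kb upstream of 31 subunit genes in RPKM on a log axis, ordered by the mean of both libraries; filled points are the Nedd4-/- library, open points the Nedd4+/+ library, and an asterisk marks a gene on the other strand that reaches into the kb. The 7 strongest windows, from Polr2i to Polr2b, are lower in Nedd4-/- cells, and the 7 weakest are higher, the direction of 82.0% of all windows under 0.2 RPKM.

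The promoters of the 4 members with the strongest windows, and of Polr2j with its weaker one, are shown to set their base composition beside these levels. Each runs from 250 bases before to 50 bases after the start annotated by RefSeq on build GRCm38.p6, 5′ to 3′ on the strand of the gene. They lie at chr7:30231824-30232123 on the plus strand, chr11:69758584-69758883 on the minus strand, chr17:46247996-46248295 on the minus strand, chr3:96727390-96727689 on the minus strand and chr5:136116441-136116740 on the plus strand. Capitals mark the GC box GGGCGG, bound by Sp1 and its relatives, and the ETS motif CCGGAAG, each on either strand, and no match was removed for overlap with another.
Polr2i: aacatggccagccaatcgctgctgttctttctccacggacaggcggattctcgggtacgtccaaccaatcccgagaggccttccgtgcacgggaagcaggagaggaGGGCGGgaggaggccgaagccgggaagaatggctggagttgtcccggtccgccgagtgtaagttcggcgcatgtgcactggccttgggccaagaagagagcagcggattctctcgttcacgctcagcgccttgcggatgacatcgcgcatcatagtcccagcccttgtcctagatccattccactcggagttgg
Polr2a: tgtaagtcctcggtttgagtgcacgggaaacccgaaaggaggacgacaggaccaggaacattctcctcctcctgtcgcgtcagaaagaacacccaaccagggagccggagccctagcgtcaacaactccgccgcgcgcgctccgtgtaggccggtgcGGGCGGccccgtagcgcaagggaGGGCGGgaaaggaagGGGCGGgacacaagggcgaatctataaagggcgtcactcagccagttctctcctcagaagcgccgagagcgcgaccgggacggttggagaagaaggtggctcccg
Polr1c: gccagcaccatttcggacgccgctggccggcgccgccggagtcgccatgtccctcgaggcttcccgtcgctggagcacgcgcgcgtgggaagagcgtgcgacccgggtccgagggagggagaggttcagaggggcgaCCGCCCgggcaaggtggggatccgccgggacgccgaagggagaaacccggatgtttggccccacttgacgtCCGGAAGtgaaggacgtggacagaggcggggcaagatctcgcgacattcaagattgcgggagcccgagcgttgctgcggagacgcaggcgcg
Polr3c: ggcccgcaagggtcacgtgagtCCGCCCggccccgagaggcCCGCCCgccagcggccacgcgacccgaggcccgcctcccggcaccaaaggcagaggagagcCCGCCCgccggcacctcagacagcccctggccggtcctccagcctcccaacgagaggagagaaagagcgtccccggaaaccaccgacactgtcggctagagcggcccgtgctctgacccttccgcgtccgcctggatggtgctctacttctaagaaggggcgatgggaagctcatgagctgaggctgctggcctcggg
Polr2j: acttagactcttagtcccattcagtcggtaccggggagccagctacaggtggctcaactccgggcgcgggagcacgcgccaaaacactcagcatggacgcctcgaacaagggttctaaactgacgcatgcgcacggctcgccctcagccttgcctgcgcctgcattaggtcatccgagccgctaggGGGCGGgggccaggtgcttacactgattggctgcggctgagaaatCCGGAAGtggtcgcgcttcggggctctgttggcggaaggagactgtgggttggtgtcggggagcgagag
The promoters of Polr2a and Polr3c hold 3 GC boxes each, in opposite orientations, and those of Polr2i, Polr1c and Polr2j hold 1 each. Polr1c and Polr2j also hold 1 ETS motif each.

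Promoters of 26 of the 32 members were matched, and among the named ones Polr2d, Polr2g, Polr2k, Polr3a and Polr3d were not. The matched promoters' median GC content was 59.3%, against 52.7% for all 32851 promoters in the table. Their median count of CpG (C followed by G) was 21.25, against 7 for all promoters. The GC box and the ETS motif each hold a CpG, and the set of all promoters was not matched to the members for CpG or expression. The GC box occurred in 14 of the 26, against 35.7% of all promoters, and the ETS motif in 9, against 8.86% of all promoters. The 9 with the ETS motif were Cd3eap, Polr1c, Polr1e, Polr2c, Polr2f, Polr2j, Polr3b, Polr3g and Polrmt, which include subunits of each enzyme. The TATA box TATAAA occurred in 3, against 13.6% of all promoters, and CCAAT in 8, against 37.4%, each on either strand. The motifs of YY1 (AAGATGGCG) and of NRF1 occurred in 0 of the 26, against 1.40% and 0.971% of all promoters, on either strand. A match describes letters in these windows and not binding. A member with more than 1 start counted once, as holding a motif if any of its starts did. The 26 members had 29 promoters, while the share of all promoters counts each promoter on its own.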

How the data were processed

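RNA of 1 Nedd4-/- and 1 Nedd4+/+ sample was compared, grouped by the genotype given per the labels. The deposited gene values are RPKM per the file headers, made by the authors with TopHat, Cufflinks and build mm9 among the tools named per the submitters' processing notes. Versions, strand setting and the handling of reads with several matches were not given in the sources used here. The deposited upstream values are a ratio: times the gene's RPKM plus 0.0001, they gave whole read bases, within 0.05, in 100% of 12512 low windows of the Nedd4-/- library and 99.99% of 16819 of the Nedd4+/+ library. That product was used as the upstream level, in place of the level that the column had been taken to hold, and read depth and read pairs per gene (202 nt a pair, inferred) were recovered from these steps.

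Log2 ratios used RPKM + 1 among genes with a mean of at least 1 RPKM, minus the median of those genes; windows used 0.1 RPKM and a minimum of 0.2 RPKM. The rule of size was 2-fold. Other pseudocounts, minimum levels, scalings and the values as deposited were tried as alternatives. Counting intervals are Clopper-Pearson at 95%, without pseudocount, and cover counting error alone: without molecular identifiers, reads are not separate molecules. Transcript lengths and neighbours came from GENCODE M21 (GRCm38) and promoters from RefSeq on GRCm38.p6. The subunits followed a rule on gene names, and 31 of the 32 are named, 1 being not reported here though counted in class summaries; up to 4 genes per list of related factors were named by the size of their ratio. Members and lists were chosen with earlier results of these data known. Python 3.11.15, numpy 2.4.6, pandas 2.3.3 and scipy 1.17.1 were used, and the steps were tested on simulated data.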

Additional observations from a re-analysis of the deposited data

How the results depend on the processing

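No paired analysis was possible because each genotype has 1 library, and no replicate could be left out. No subunit was 2-fold different under any of the 8 settings tried on gene levels, 1 of them, subtraction of each library's first quartile, chosen after seeing the data, as was leaving out members overlapped by coding genes. Class medians given relative to all genes depend on the centring. As deposited, without centring, the median log2 ratios were -0.36 for polymerase I, -0.23 for II, -0.28 for III, -0.21 for subunits shared by I and III, -0.13 for those of all enzymes and -0.25 for Polrmt. With no minimum level the median of all genes became 0.02 and the same medians, in that order, -0.38, -0.25, -0.30, -0.23, -0.16 and -0.28, so that the 31 named members lay below it. With a minimum of 5 RPKM the polymerase III median was 0.24, from 2 remaining members. Under the other settings 28 or 29 of 32 members kept their side, and 16 of 19 with the 5 RPKM minimum. With a pseudocount of 0.1 RPKM polymerase II exceeded III by 1.58 on the log2 scale in Nedd4-/- cells. The upstream median of -0.34 became -0.18 with 0.5 RPKM added, 0.05 with no minimum level and 0.07 without centring. Depth limited Polr2k and Polr3gl most, with 23 and 46 read pairs in the Nedd4-/- library.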
